A study of Mus musculus with 18 samples.

Results

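The miR-183 cluster is a group of 3 microRNAs (miRNAs), mmu-miR-183-5p, mmu-miR-96-5p and mmu-miR-182-5p (written below without the prefix for mouse), cut from neighbouring hairpins of one locus. Its members were the 3 entries of the deposited mouse kidney small RNA table that carry these names, out of 1534 entries in all, and each stood on 1 entry whose values equalled those of no other named entry. All 3 were among the 619 entries that passed the filter on low counts. The kidneys came from 3 groups with 6 libraries each. Control libraries came from C57BL/6J mice given 0.9% saline. Diabetic nephropathy (DN) libraries came from C57BL/KsJ mice given the same saline. Treated libraries came from mice of that strain with DN that received 10 mg/kg/day of germacrone, a sesquiterpene found in plants. The labels give no genotype beyond the strain, no age and no sex, and nothing in them ties a library to an animal of its own, so the spread behind every p-value may be technical. Both DN groups differ from control in strain, and in comparisons with control the effect of strain and that of disease cannot be told apart.

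The 3 miRNAs are made from one primary transcript and are best known from sensory organs: they are abundant in the retina, in the hair cells of the inner ear and in sensory neurons, and a change in the seed of miR-96 causes progressive hearing loss in mice. A miRNA finds its target messages mainly through its seed, the bases near its 5′ end, and close seeds let the members share targets. Among those reported are Foxo1 and Foxo3, transcription factors that insulin signalling keeps out of the nucleus. In activated helper T cells, interleukin-2 induces miR-182, which represses Foxo1.

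The mature sequences, from RefSeq (GRCm38.p6), are shown 5′ to 3′ because the seeds set which members can share targets. Capitals mark the seed, bases 2 to 8.
miR-183-5p: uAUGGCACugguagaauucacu
miR-96-5p: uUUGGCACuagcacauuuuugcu
miR-182-5p: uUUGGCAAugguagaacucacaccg
The seeds are near copies. miR-183-5p and miR-96-5p had 6 of 7 seed bases in common (A2U, counted from 1 at the 5′ end with the base of miR-183-5p first). miR-96-5p and miR-182-5p also had 6 of 7 in common (C8A, with the base of miR-96-5p first). miR-183-5p and miR-182-5p had 5 of 7 in common, but over their whole shared length they were the closest pair, with the same base at 18 of 22 positions and a run of 8 equal bases that starts at base 9. No 2 members had the same seed. Among 1679 mature mouse miRNAs in the RefSeq table, the seed of miR-96-5p was found in 1 other, miR-1271-5p, which is not analysed here, and those of miR-183-5p and miR-182-5p in no other.

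In GRCm38.p6 the 3 hairpins lie on the minus strand of chromosome 6, so that Mir183 comes first in the direction of transcription. Mir183 is at chr6:30169668-30169737, Mir96 at chr6:30169446-30169551 and Mir182 at chr6:30165918-30165992. Mir183 and Mir96 are 116 bases apart, and Mir182 lies 3453 bases further on. In GENCODE M21 no other gene overlaps the span of the cluster. Its neighbours are both on the plus strand: the long non-coding RNA gene Rncr4 is 3155 bases away on the side of Mir183, and Nrf1, which codes for a transcription factor of mitochondrial genes, is 12459 bases away on the side of Mir182. The sources used here do not give the authors' build, so these positions describe the reference and not the deposited values.

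Levels are given as CPM, a count divided by the library's TMM-scaled total. Total counts of named entries ran from 3639788 in DN 1 to 7236245 in DN 4. The library DN 2 stood apart: its median correlation of log2 CPM with its own group was 0.896, against 0.926 in DN 3, 0.946 in control 2 and 0.958 to 0.973 in the other 15 libraries. Values of the DN group and comparisons with it are therefore given with and without DN 2. The kidney-enriched miRNAs listed for a check of the tissue (6 entries, among them miR-30a-5p and miR-10a-5p) summed to 100529.5 to 218422 CPM in 17 libraries and to 55030.0 CPM in DN 2. In bulk tissue, fewer cells of a type and less RNA per cell cannot be told apart.

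The cluster was of middling abundance in kidney among the entries that passed the filter. Over the 18 libraries miR-182-5p averaged 338 CPM, miR-183-5p 249.6 CPM and miR-96-5p 101 CPM. This placed them 129th, 147th and 202nd among the 505 distinct names that passed the filter on low counts. Some of these names are of other species. Counts were high enough for precise values in each library, from 698 to 3747 reads for miR-182-5p, 478 to 3459 for miR-183-5p and 169 to 1391 for miR-96-5p. The order of the members was almost the same everywhere: miR-96-5p was the lowest in 18 of 18 libraries, and miR-182-5p lay above miR-183-5p in all but control 3 and DN 3. Mature lengths were 22, 23 and 25 bases, so no correction for length was made, but adapter ligation can favour one sequence over another.

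miR-183-5p, first in the primary transcript, ranged from 138 to 359 CPM in control, with a median of 245. In DN it ranged from 128 to 503 with a median of 199.5, and in treated kidneys from 196 to 393 with a median of 232. The 3 ranges overlapped, and the highest library of all was DN 2, at 503 CPM, followed by treated 3 and treated 5 at 393 and 388.

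miR-96-5p, whose seed is the one tied to hearing, ranged from 58.8 to 145 CPM in control, with a median of 78.6. In DN it ranged from 36.9 to 202 with a median of 75.4, and in treated kidneys from 58.4 to 188 with a median of 115. DN 3 held the lowest level and DN 2 the highest, so that DN spanned both ends of the series. Without DN 2 the highest DN library was DN 4, at 105 CPM.

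miR-182-5p, the member induced in activated T cells, ranged from 170 to 413 CPM in control, with a median of 282. In DN it ranged from 191 to 545 with a median of 249.8, and in treated kidneys from 272 to 679 with a median of 344. Here treated 3 and treated 5, at 679 and 596 CPM, lay above every other library, DN 2 included. Without DN 2 the DN libraries lay between 191 and 311 CPM, and 4 of 6 treated libraries were above all of them. The place of DN 2 depends on the TMM factors. With library sizes alone DN 2 was the highest library for miR-182-5p, at 652 CPM, before treated 3 at 564 and treated 5 at 533.

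**Figure D1:**
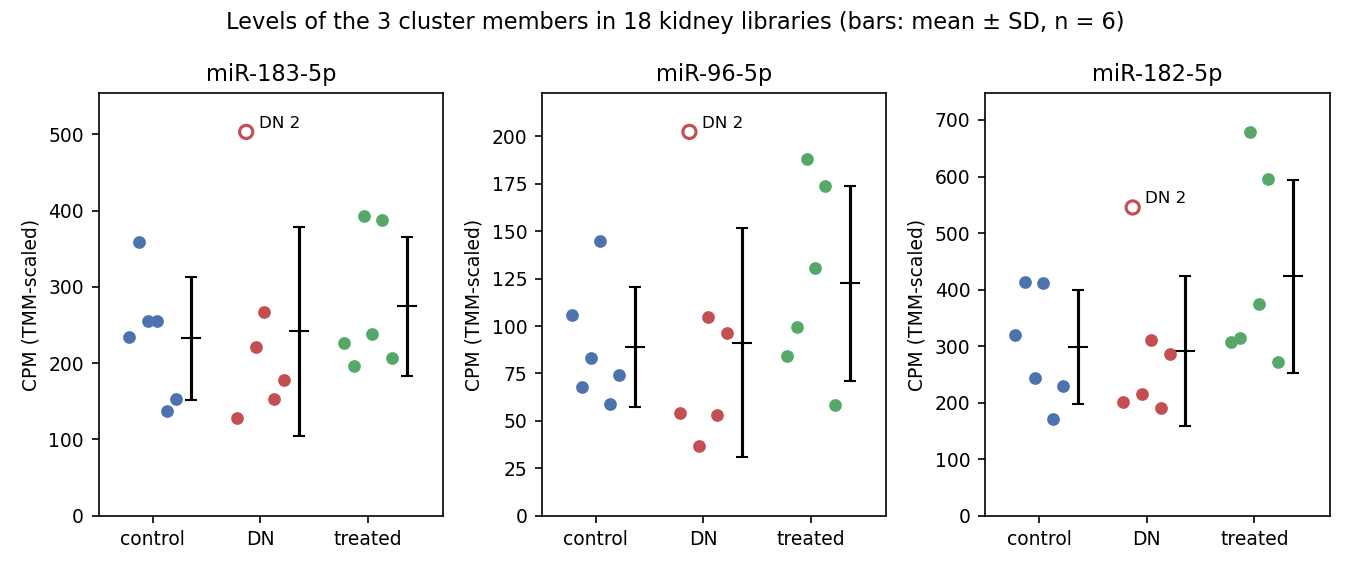
Level of miR-183-5p, miR-96-5p and miR-182-5p in CPM (linear axis from 0) in each of the 18 libraries, by group, with mean ± SD over 6 libraries at the right of each group. The open circle is DN 2, the highest DN library for each member, and the 2 highest treated libraries are treated 3 and treated 5.

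DN against control asked whether the cluster differs in kidneys with diabetic nephropathy. With all 18 libraries the group means were close: 242 ± 137 CPM in DN and 232 ± 80.5 in control for miR-183-5p, 91.3 ± 60.6 and 89.0 ± 31.6 for miR-96-5p, and 291 ± 133 and 298 ± 101 for miR-182-5p (mean ± SD, n = 6 each). The log2 fold change was 0.057 (SE 0.320, 95% interval −0.61 to 0.73) for miR-183-5p, 0.038 (SE 0.376, −0.75 to 0.82) for miR-96-5p and −0.033 (SE 0.306, −0.67 to 0.61) for miR-182-5p. The edgeR quasi-likelihood test called 0 of the 3 members, at Benjamini-Hochberg adjusted p of 0.986, 0.991 and 0.991. It called 0 of 619 entries in all (0%), with 47 at an unadjusted p under 0.05, while DESeq2 called 4 and limma-voom with sample weights 91, none of them a member. The intervals reach from a fold of 0.595 to one of 1.77 for miR-96-5p, so the data do not show that the members were alike in both groups.

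Without DN 2 all 3 members lay lower in DN than in control, each by less than its interval. The DN mean was then 189 ± 55.1 CPM for miR-183-5p, 69.1 ± 29.7 for miR-96-5p and 241 ± 53.9 for miR-182-5p (n = 5). The log2 fold changes were −0.25 (SE 0.265), −0.34 (SE 0.317) and −0.27 (SE 0.264), at edgeR adjusted p of 0.761, 0.712 and 0.737. The direction for miR-183-5p and miR-96-5p thus turned when DN 2 was left out, and also without control 6 (−0.039 and −0.012). In that fit 6 of 630 entries were called (0.952%), none of them a member.

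Treated against DN asked whether the cluster differs in DN kidneys after germacrone. miR-182-5p averaged 424 ± 171 CPM in treated and 291 ± 133 in DN kidneys, miR-96-5p 122 ± 51.3 and 91.3 ± 60.6, and miR-183-5p 275 ± 90.9 and 242 ± 137 (n = 6 each). The groups overlapped for each member, but 6 of 6 treated libraries lay above the DN median for miR-182-5p, and 5 of 6 for miR-96-5p and miR-183-5p. The log2 fold change was 0.54 for miR-182-5p (SE 0.306, 95% interval −0.10 to 1.18, 1.45-fold), 0.42 for miR-96-5p (SE 0.376, −0.36 to 1.21) and 0.18 for miR-183-5p (SE 0.320, −0.49 to 0.85). By edgeR the adjusted p was 0.800, 0.809 and 0.922, and 0 of 619 entries passed (0%), with 23 at an unadjusted p under 0.05. DESeq2 and limma-voom also called 0.

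Leaving out DN 2 made these differences larger. The log2 fold change was then 0.78 for miR-182-5p (SE 0.264, 95% interval 0.22 to 1.33, 1.71-fold), 0.80 for miR-96-5p (SE 0.317, 0.13 to 1.46, 1.74-fold) and 0.49 for miR-183-5p (SE 0.265, −0.072 to 1.04). For all 3 members 6 of 6 treated libraries lay above the DN median. By the edgeR test the unadjusted p was 0.00970, 0.0234 and 0.0858, which ranked miR-182-5p at 2, miR-96-5p at 6 and miR-183-5p at 37 among 630 entries. The adjusted p was 0.883 for each, and 0 of 630 entries were called (0%), with 18 at an unadjusted p under 0.05, so none of these differences passed.

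**Figure D2:**
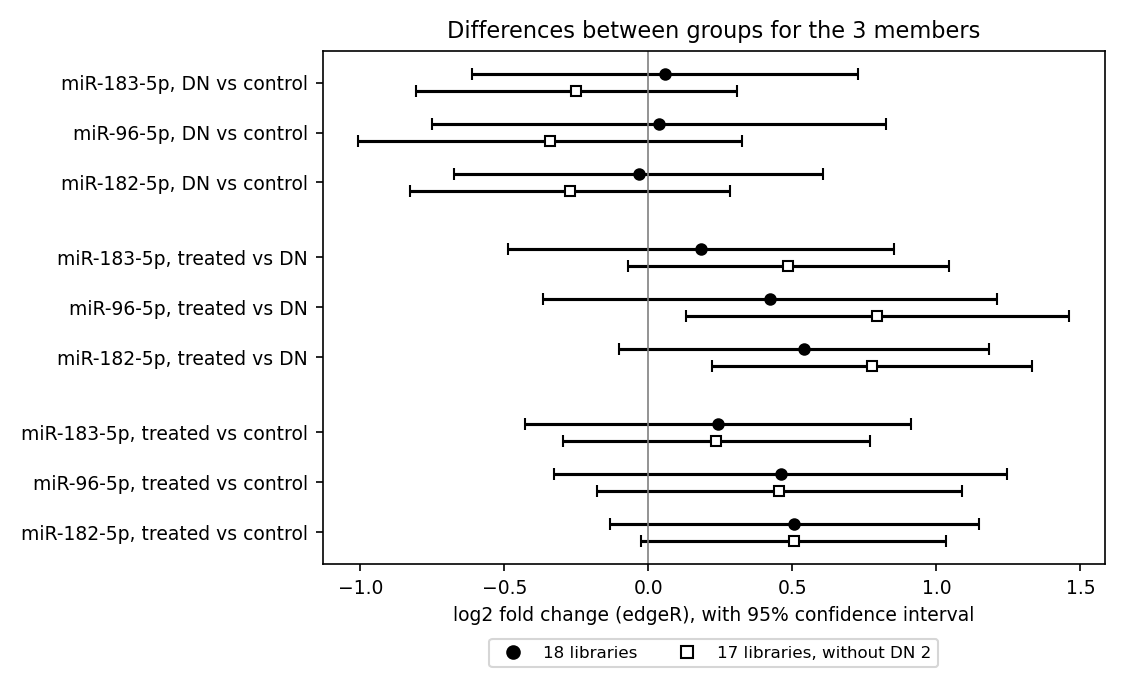
Log2 fold change of each member (edgeR, x axis) with its 95% confidence interval for the 3 comparisons, over all 18 libraries (filled circles) and over the 17 without DN 2 (open squares). For treated against DN the intervals of miR-96-5p and miR-182-5p lie above 0 without DN 2 (0.13 to 1.46 and 0.22 to 1.33) and include 0 with it.

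Without the 3 libraries least like their groups (control 2, DN 2 and DN 3), the log2 fold changes were 0.58 for miR-183-5p, 0.65 for miR-96-5p and 0.76 for miR-182-5p. No other single library than DN 2 moved the comparison of treated with DN as far upward, and several moved it down. For miR-182-5p the log2 fold change was 0.31 without treated 3 and 0.78 without DN 2, the lowest and highest of the 18 values with a library left out. For miR-96-5p the lowest was 0.21, also without treated 3. For miR-183-5p it was 0.0013 without DN 1, 0.012 without treated 5 and 0.014 without treated 3. The scaling also matters here. With library sizes alone the median log2 fold change of all 619 entries was −0.19, in place of −0.054 with TMM factors, and miR-183-5p stood at −0.026, miR-96-5p at 0.21 and miR-182-5p at 0.34. Relative to the median of all entries the differences were closer: 0.17, 0.41 and 0.53 with library sizes alone against 0.24, 0.48 and 0.59 with TMM factors.

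**Figure D3:**
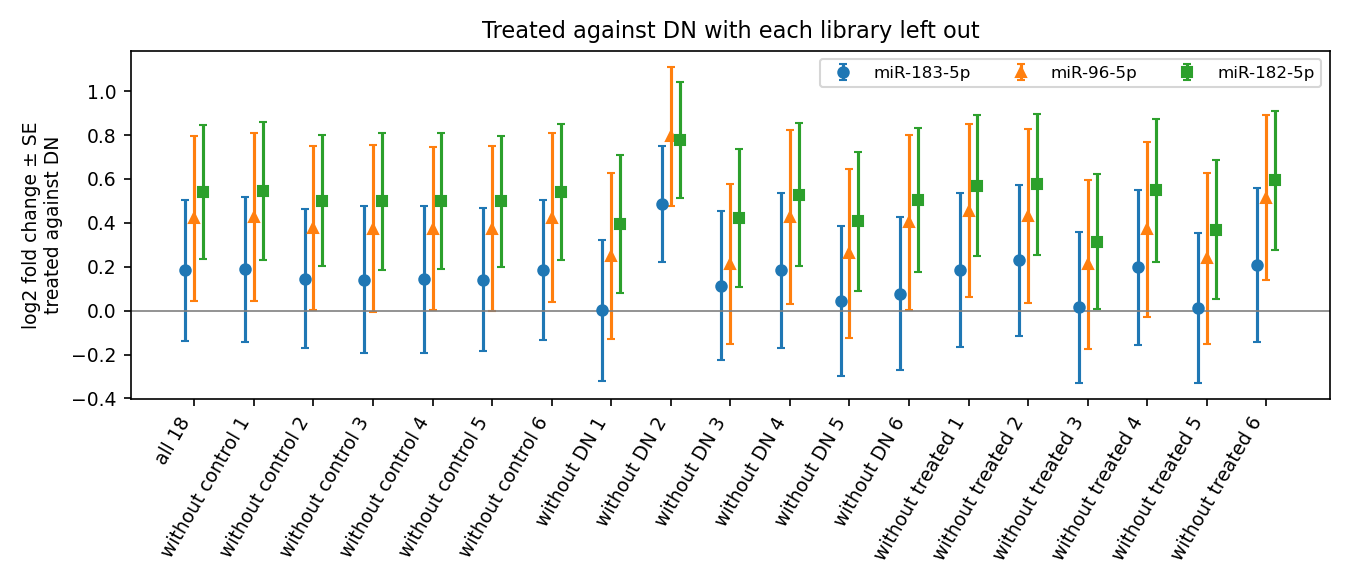
Log2 fold change of treated against DN (y axis, ± SE) for the 3 members with all 18 libraries and with each library left out (x axis). Values peak without DN 2 (0.49, 0.80 and 0.78 for miR-183-5p, miR-96-5p and miR-182-5p), and without treated 3 miR-182-5p stands at 0.31.

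Treated against control asked how far the cluster in treated DN kidneys stands from that in control kidneys. Treated means were the higher for each member, with overlapping groups: 424 ± 171 against 298 ± 101 CPM for miR-182-5p, 122 ± 51.3 against 89.0 ± 31.6 for miR-96-5p and 275 ± 90.9 against 232 ± 80.5 for miR-183-5p (n = 6 each). Above the control median lay 5 of 6 treated libraries for miR-182-5p and miR-96-5p and 2 of 6 for miR-183-5p. The log2 fold change was 0.51 for miR-182-5p (SE 0.306, 95% interval −0.13 to 1.15), 0.46 for miR-96-5p (SE 0.376, −0.33 to 1.25) and 0.24 for miR-183-5p (SE 0.320, −0.43 to 0.91). None of the members passed by edgeR (adjusted p of 0.371, 0.545 and 0.729), nor did any of 619 entries (0%), of which 121 had an unadjusted p under 0.05. DESeq2 called 18 entries and limma-voom 106, none of them a member. Groups did not overlap for 32 of 619 entries (5.17%), and for 0 of the 3 members. DN 2 is in neither group, so leaving it out cannot change that count. The smallest adjusted p of a member in any setting was 0.0909, for miR-182-5p by limma-voom, over a range up to 0.631 for that difference. Leaving out DN 2 changed the shared spread and the entries kept by the filter, and the log2 fold changes were 0.50, 0.45 and 0.24 and 7 of 630 entries were called (1.11%), none a member. This comparison shares its treated libraries with the one before and its control libraries with the first.

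The members varied together from library to library. Over 18 libraries miR-183-5p and miR-182-5p had a Pearson r of 0.891 in log2 CPM (permutation p = 2e-05, adjusted over 3 pairs 3e-05; Spearman rho 0.849, permutation p = 5e-05, adjusted 7.5e-05). miR-96-5p and miR-182-5p had an r of 0.869 (permutation p = 1e-05, the smallest 100000 resamples can give, adjusted 3e-05; rho 0.856, permutation p = 4e-05, adjusted 7.5e-05). The pair of neighbouring hairpins, miR-183-5p and miR-96-5p, had the lowest r, 0.709 (permutation p = 0.00114, adjusted 0.00114; rho 0.713, permutation p = 0.00138, adjusted 0.00138). With the 2 libraries farthest from the median of the first measure left out, r was 0.879, 0.866 and 0.597 in the same order. All levels of a library share its scaling. Without DN 2 r was 0.883, 0.848 and 0.634 in that order. With library sizes alone it was 0.887, 0.855 and 0.689 over 18 libraries and 0.850, 0.805 and 0.540 without DN 2, where the lowest had a permutation p of 0.0267 (adjusted 0.0267).

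Within groups of 6 the pairs were compared in the same way. For miR-183-5p and miR-182-5p, r was 0.858 in control, 0.918 in DN and 0.973 in treated libraries (exact permutation p = 0.025, 0.0194 and 0.0125, adjusted over the 3 pairs 0.075, 0.0292 and 0.0188), with a rho of 0.829, 0.886 and 0.829 (exact permutation p = 0.0583, 0.0333 and 0.0583, adjusted 0.175, 0.0875 and 0.0583). For miR-96-5p and miR-182-5p it was 0.626, 0.941 and 0.935 (exact permutation p = 0.188, 0.0125 and 0.00417, adjusted 0.281, 0.0292 and 0.0125), with a rho of 0.429, 0.829 and 1.0 (exact permutation p = 0.419, 0.0583 and 0.00278, adjusted 0.629, 0.0875 and 0.00833). For miR-183-5p and miR-96-5p it was 0.351, 0.759 and 0.854 (exact permutation p = 0.497, 0.0639 and 0.0333, with the same values after adjustment), with a rho of 0.257, 0.6 and 0.829 (exact permutation p = 0.658, 0.242 and 0.0583, also the same after adjustment). The values in DN rest in part on DN 2. Over the other 5 DN libraries r was 0.691 for miR-183-5p and miR-182-5p, 0.864 for miR-96-5p and miR-182-5p and 0.321 for miR-183-5p and miR-96-5p. None was past the threshold (exact permutation p = 0.233, 0.1 and 0.558, adjusted 0.350, 0.3 and 0.558). The first and last of these r are below the r in control, and that of miR-96-5p and miR-182-5p is above it. Whether r differed between groups was not tested.

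**Figure D4:**
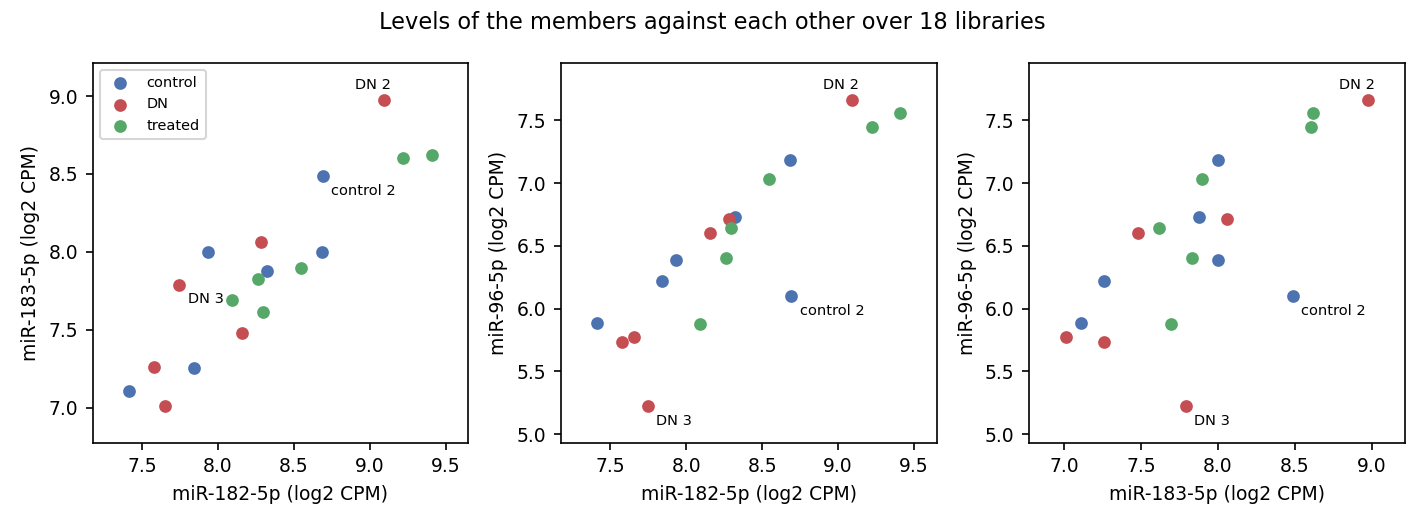
Log2 CPM of the members against each other over 18 libraries, coloured by group (left, miR-183-5p by miR-182-5p; middle, miR-96-5p by miR-182-5p; right, miR-96-5p by miR-183-5p). Points follow a line (r of 0.891, 0.869 and 0.709), DN 2 lies near its upper end, and control 2 and DN 3 lie below it where miR-96-5p is plotted.

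The share of each member in the cluster's reads ranged less than the summed level, and that of miR-96-5p ranged the most of the 3 shares. miR-182-5p made up 41.9% to 53.9% of the reads of the 3 members, miR-183-5p 31.2% to 46.8% and miR-96-5p 7.82% to 17.8%. The sum of the 3 members ranged 3.44-fold over libraries, from 367 CPM in control 5 to 1260 in treated 3, whereas the share of miR-182-5p ranged 1.29-fold. Per read of miR-182-5p there were 0.664 ± 0.0700 reads of miR-183-5p in treated kidneys, against 0.813 ± 0.160 in DN and 0.790 ± 0.155 in control (mean ± SD, n = 6 each). Without DN 2 the DN value was 0.790 ± 0.168 (n = 5). The treated libraries lay between 0.578 and 0.759 and overlapped both other groups (0.624 to 1.03 in DN, 0.621 to 1.05 in control). These ratios are a description with no test. They depend on no scaling between libraries, since both counts come from the same one.

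**Figure D5:**
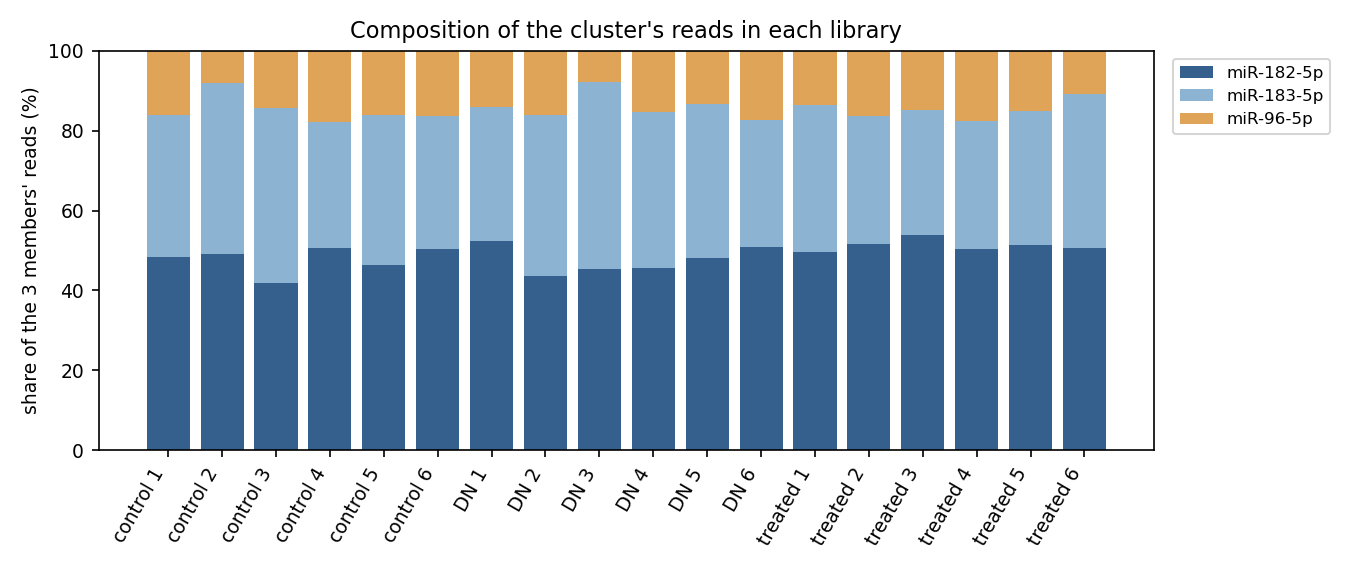
Share (%) of the summed reads of the 3 members that each took in each of the 18 libraries, as stacked bars that reach 100%. miR-96-5p took 7.82% in DN 3 and 8.11% in control 2, the 2 lowest shares, and miR-183-5p took its highest share, 46.8%, in DN 3.

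Other products of the 3 hairpins had few reads, and the 3 entries found failed the filter on low counts. miR-183-3p had reads in 12 of 18 libraries and 219 reads in all, or 0.945% of the reads of both arms. Most came from control 2 and DN 2, with 66 and 62 reads, which were 2.44% (95% exact binomial interval 1.89% to 3.09%) and 1.76% (1.35% to 2.25%) of both arms there. The next highest were treated 5 with 17, control 3 with 15 and DN 3 with 13 reads, and 6 libraries were listed at 0 (control 6, DN 1, DN 4, DN 5, DN 6 and treated 4). miR-96-3p had 6 reads in treated 5 and was listed at 0 elsewhere, and the entry mmu-mir-182-p3 had 5 reads, in control 3. The name of that entry is not the annotated name of the 3′ arm, so it may be another product of the hairpin. No value in the table equals 1, while 359 are whole, above 0 and below 5, and 948 equal 5. An entry listed at 0 may thus have had a few reads, and no upper limit is drawn from it. Intervals cover counting error only, since reads without molecular identifiers are not independent molecules.

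Other miRNAs reported to target Foxo1 or Foxo3 had no member past the test. Of 14 listed, 12 had an entry and 10 were tested, and 0 were called in any comparison with or without DN 2. For treated against DN, a log2 fold change above 0 was found in 2 of the 10 (median −0.32), beside 261 of 619 entries (median −0.054). It was found in 5 of the 10 (median −0.036) when the library DN 2 was left out, beside 287 of 630 entries (median −0.035). The list shares 2 miRNAs with the leukocyte list, 1 with the nerve list and 1 with the red blood cell list. By level the largest were miR-27b-3p (log2 fold change 0.24, SE 0.179), miR-27a-3p (−0.011, SE 0.163) and miR-139-5p (−0.27, SE 0.182), at edgeR adjusted p of 0.800, 0.991 and 0.800. For DN against control 6 of the 10 were above 0 (median 0.21), beside 350 of 619 entries (median 0.075), and without DN 2 there were 4 of 10 (median −0.17), beside 331 of 630 (median 0.023). For treated against control 3 of the 10 were above 0 with and without DN 2 (median −0.13 in both), beside 308 of 619 and 311 of 630 entries.

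The leukocyte list was highest in DN 2. The 9 leukocyte miRNAs, led by miR-146a-5p and miR-342-3p, summed to 28058 CPM in DN 2 against 1766 to 2569 in the other DN libraries, 3309 to 4432 in control and 2018 to 9428 in treated libraries. None of the 9 but the scarce miR-342-5p was at 0 in any library. DN 2 also held the highest miR-183-5p and miR-96-5p of the series. Treated 6 had the second highest leukocyte sum, 9428 CPM, of which miR-146a-5p made up 7613, and it had the lowest miR-182-5p and miR-96-5p of the treated libraries. For treated against DN, 0 of 9 leukocyte entries had a log2 fold change above 0, beside 261 of 619 entries in all. Without DN 2 there were 6 of 9, beside 287 of 630, and 0 of the 9 were called either way. Without DN 2, miR-150-5p was the 1 called of the 9 in DN against control (log2 fold change −1.21, SE 0.227, edgeR adjusted p = 0.0198), beside 6 of 630 entries (0.952%). It was also the 1 called of the 9 in treated against control (−1.32, SE 0.217, edgeR adjusted p = 0.00746), beside 7 of 630 entries (1.11%). The part of leukocytes in the levels of the cluster was not tested.

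The epithelial list was lowest in DN 2. The 5 miR-200 family miRNAs of epithelium, led by miR-200a-3p and miR-200b-3p, summed to 17799 CPM in DN 2 against 31424 to 49734 in the other DN libraries, 32489.5 to 45898 in control and 41339 to 57781 in treated libraries. For treated against DN, 5 of 5 had a log2 fold change above 0 (median 0.33), beside 261 of 619 entries in all (median −0.054). Without DN 2 there were 4 of 5 (median 0.15), beside 287 of 630 (median −0.035), and 0 of the 5 were called either way. The 7 miRNAs of nerve, adrenal and neuroendocrine cells, led by miR-7a-5p and miR-375-3p, summed to 503 to 1275 CPM in control libraries. Their sum in DN was 568 to 846 CPM, with DN 2 at 756, and after treatment 700 to 950 CPM. Of the 6 tested, 4 had a log2 fold change above 0 in treated against DN, and 5 of 6 without DN 2, with 0 called. The counts over all entries are those given for the epithelial list. The part of these cells in the cluster's levels was not tested either.

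The miRNAs whose levels ran most like the cluster depended on DN 2. Likeness was the Pearson r with the mean log2 CPM of the 3 members, over 325 other mouse miRNAs with a mean of at least 10 CPM. Over 18 libraries the closest were miR-34c-5p (r = 0.802), miR-31-5p (0.752), miR-199a-5p and miR-199b-5p (0.748 each, with equal values in every library) and miR-20a-5p (0.717), beside a median of −0.022 over all candidates. Over the 17 without DN 2 they were miR-100-5p and miR-99a-5p (0.888 each, also with equal values), miR-125b-2-3p (0.800), miR-34c-5p (0.772) and miR-26a-5p (0.740), beside a median of 0.028. miR-34c-5p, a miRNA that p53 can induce, was in both sets. These values describe the libraries and carry no test.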

How the data were processed

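Small RNA of mouse kidney was measured in 18 libraries, 6 for each of 3 groups. Per the labels' protocols, RNA was extracted with Trizol, libraries were made with a TruSeq Small RNA kit, and ACGT101-miR removed adapter dimers, junk, low-complexity reads, repeats and common RNA families. Tools named in the submitters' processing notes are Trimmomatic 0.32, BWA, SAMtools and edgeR, with no role stated. The deposited raw columns hold estimated counts (76.9% of values above 0 are whole, and all 54 of the members are). The deposited normalized columns hold a signal, the raw value times 1 factor per library. Unnamed entries (350 of 1534, at most 0.148% of a library) were left out.

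Rounded counts of all 18 libraries were fitted by group (R 4.3.3, edgeR 4.0.16), with TMM factors, filterByExpr (619 of 1184 named entries kept) and the legacy quasi-likelihood test, 2-sided, with Benjamini-Hochberg adjustment over all kept entries and a threshold of 0.05. The script was tested on simulated data. Log2 CPM used a prior count of 2. Depth was 3639788 to 7236245 counts per library. Correlations used 100000 permutations, or all of them within a group. Alternatives used RLE factors, library size only, other filters, DESeq2 1.42.0, limma 3.58.1 (voom, or log2 of the deposited signal plus 1), a replicate block, only 2 groups, summed names, a robust prior and each library left out. Other fits without DN 2, correlations within DN without it, and one without control 2, DN 2 and DN 3, were chosen after seeing the data. The members, lists and tests were chosen with earlier results of these data known. By rule, the text names the 3 members, the other arms of their hairpins, up to 3 FoxO-targeting and 2 miRNAs per marker list of highest level, and the 5 most similar miRNAs with and without DN 2. Outside this rule, miR-342-5p (the leukocyte marker listed at 0) and miR-150-5p (the only leukocyte marker called, without DN 2) were named after their values were seen. The list of FoxO-targeting miRNAs and the marker lists come from general knowledge. Of the 6 entries of the kidney list, 0 were called with all 18 libraries. Without DN 2, 1 was called in DN against control and 2 in treated against control. Over all entries 0.952% and 1.11% were called there. The red blood cell list (4 entries) summed to 1272 CPM in DN 2, 2583 to 4287 in the other DN libraries, 1817 to 3945 in control and 1346 to 5364 in treated libraries, with 0 called in any comparison. Same-numbered libraries were not treated as pairs (check in the closing section).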

Additional observations from a re-analysis of the deposited data

Results flagged for a closer look

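In the DN group, DN 2 lay far above the other 5 libraries for 2 of the members. miR-183-5p was at 503.3 CPM there, where the others held 128 to 267, and miR-182-5p at 545.2 CPM, against 191 to 311. The gap to the next library was 0.631 and 0.662 of the group's range, above the limit of 0.625 for 6 libraries. For miR-96-5p, at 202 CPM in DN 2, the gap stayed under that limit. The rule was applied to CPM, and in log2 CPM the gaps of the other 2 members also stay under the limit. There miR-183-5p was at 8.98 in DN 2, 8.06 in DN 4 and 7.01 in DN 1, the lowest. miR-182-5p was at 9.09 in DN 2, 8.28 in DN 4 and 7.58 in DN 5, the lowest. The summed level of leukocyte miRNAs was 28058 CPM in DN 2, and the part of leukocytes was not tested.

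Control 2 stood apart in the make-up of the cluster. It held 0.1648 reads of miR-96-5p per read of miR-182-5p, against 0.322 to 0.351 in the other control libraries, and the gap was 0.844 of the range. Of 18 groups of values looked at this way, 3 stood out. Chance gives about 1 in 20, or 0.9, if values follow a normal distribution, which CPM and ratios need not do.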

How the results depend on the processing

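For the members, 303 values under other settings were computed: 266 kept their direction, 37 reversed and 0 passed the test (lowest adjusted p 0.0909). For 9 group means, 63 values under other settings were computed, and 0 moved by 1 SD of the group or more. Leaving out 1 of 6 libraries cannot move a mean that far, so for those values the count shows nothing. Treated against DN had 0 entries called in every setting run. The other counts of called entries moved from 0. For DN against control they were 2 with a filter of 10 CPM, 4 with DESeq2, 91 with limma-voom, 51 without control 2, DN 2 and DN 3, and 0 to 6 with 1 library left out (1 without control 2, 6 without DN 2, 6 without DN 3). Without DN 2 they were 4 with only the 2 groups, 65 with limma-voom, 19 with DESeq2 and 4 with library size only. For treated against control they were 18 with DESeq2, 106 with limma-voom, 56 with only the 2 groups, 50 without those 3 libraries, and 0 to 7 with 1 library left out (7 without DN 2, 3 without DN 3). Without DN 2 they were 94 with limma-voom, 77 with DESeq2 and 8 with library size only. The log2 fold change of DN against control reversed for miR-183-5p and miR-96-5p with limma-voom (−0.12 and −0.18), the authors' normalized values (−0.0060 and −0.11), without the 3 libraries (−0.20 and −0.28), and without DN 2 with only the 2 groups (−0.32 and −0.39), limma-voom (−0.17 and −0.25), DESeq2 (−0.32 and −0.39) and library size only (−0.43 and −0.51). With 1 library left out it ran from −0.25 to 0.30 for miR-183-5p, −0.34 to 0.27 for miR-96-5p and −0.27 to 0.18 for miR-182-5p. miR-182-5p reversed with the filter of 10 CPM (0.026) and with only the 2 groups (0.024), and in 14 of the 18 fits with 1 library left out (control 2, 3 or 4, any DN library but DN 2, or any treated library), 16 of 34 settings in all. For treated against DN, miR-183-5p reversed with library size only (−0.026), and with 1 library left out it ran from 0.0013 to 0.49, beside 0.21 to 0.80 for miR-96-5p and 0.31 to 0.78 for miR-182-5p. For treated against control these ranges were 0.14 to 0.45, 0.34 to 0.65 and 0.37 to 0.68. The lowest values over all other settings were 0.0052, 0.24 and 0.28 in the same order. With library size only the median log2 fold change of all 619 entries was −0.20 there, in place of −0.0035 with TMM factors. Pearson correlations no longer past the threshold were those of miR-183-5p and miR-96-5p within control (0.351) and DN (0.759), of miR-183-5p and miR-182-5p within control after adjustment (0.858) and of miR-96-5p and miR-182-5p within control (0.626), each over 6 libraries, and all 3 pairs over the 5 DN libraries without DN 2 (0.321, 0.691 and 0.864 for miR-183-5p with miR-96-5p, miR-183-5p with miR-182-5p and miR-96-5p with miR-182-5p). Spearman's rho within groups was past it after adjustment for miR-96-5p with miR-182-5p in treated libraries and for no other pair or group. The cause of these changes was not tested.

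Same-numbered libraries of different groups correlated at −0.33 to 0.26, over 0.1 in 3 of 18 pairs. The best match of a library was its own number in 0 of 18, so no sign of pairing was seen. The labels do not say that the numbers pair samples, and this check could miss a weak pairing. With the replicate block, 0 entries were called in each comparison, DN against control stood at −0.0022 for miR-183-5p and −0.042 for miR-96-5p, and treated against DN at 0.32, 0.51 and 0.61 for miR-183-5p, miR-96-5p and miR-182-5p. The other products of the hairpins had at most 66 reads in a library and the members at least 169, so counting error is larger for the former.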

Other observations

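A low share of miR-96-5p marked 2 libraries from different groups. DN 3 held 0.172 reads of miR-96-5p per read of miR-182-5p, near the 0.165 of control 2, whereas the other 16 libraries lay between 0.215 and 0.371. With DN 2, these are the libraries least like their own group (median r of 0.926 in DN 3 and 0.946 in control 2), yet in DN 2 the ratio was 0.371, the highest of all. The ratio needs no scaling between libraries, and what sets it was not tested.

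The other arm of the miR-183 hairpin was also uneven. Control 2 and DN 2 together held 128 of the 219 miR-183-3p reads. DN 4 had 1749 reads of miR-183-5p and was listed at 0 for miR-183-3p, while control 3, with 1385 reads of miR-183-5p, had 15.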
